A study of Bos taurus with 60 samples.

Results

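The libraries described here are the descending colon samples of a small RNA sequencing study of the cattle gut (Bos taurus), 10 of 60 libraries in all, chosen by their region label. Of these 10, 5 came from super-shedders, cattle whose feces held Escherichia coli O157 in numbers above a set limit, and 5 from non-shedders, in whose feces this bacterium was not found. The other 50 libraries cover duodenum, proximal jejunum, distal jejunum, cecum and spiral colon, again with 5 libraries of each status per region. The sample titles carry letters, F to J for super-shedders and A to E for non-shedders, and it was inferred that a letter stands for 1 animal. The samples were biopsies of whole tissue, snap-frozen after the animals had died, and no genotype, strain or dosing is labelled for any group. The protocol text speaks of rectal tissue, whereas the tissue label reads descending colon, and the tissue label was used. Each value is a read count per mature microRNA (miRNA).

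A miRNA is a short RNA that guides Argonaute proteins to matching messenger RNAs, which are then repressed. Many miRNAs are made mainly in a single kind of cell: miR-192 and the miR-200 family in epithelium, miR-143 and miR-145 in smooth muscle and other mesenchymal cells, miR-142 in leukocytes, miR-451 and miR-144 in red blood cells. In a biopsy of the whole gut wall the level of such a miRNA therefore follows both the number of those cells and the amount of the RNA in each, and these cannot be told apart here. The lower bowel is the part of the bovine gut that E. coli O157 is best known to colonize. The comparison asks which miRNAs of the descending colon differ between cattle that shed this bacterium heavily and cattle that do not.

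No miRNA was called different between super-shedders and non-shedders in the descending colon. Of 269 miRNAs tested, 0 passed an adjusted p of 0.05 (0%) in edgeR's quasi-likelihood test, and 8 had an unadjusted p under 0.05 (2.97%), 7 of them with a higher fitted level in super-shedders and 1 with a lower. DESeq2 also called 0, with 13 at an unadjusted p under 0.05, and so did edgeR's exact test, with 12. The smallest adjusted p in DESeq2 was 0.0948, for miR-378b, and it gave no p for 6 miRNAs, miR-486, miR-451 and miR-99a-5p among them. The levels of the 2 groups overlapped for every miRNA, so that 0 of 269 (0%) separated the 5 super-shedder libraries from the 5 non-shedder libraries. The log2 fold change, super-shedder over non-shedder, was above 0 for 150 miRNAs and below 0 for 119, with a median of 0.05. The smallest adjusted p of edgeR's test was 0.979, shared by most of the miRNAs tested, so that it sets none of them apart. The 20 miRNAs with the smallest unadjusted p are described below as not passing.

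Several of the 10 libraries stood apart from the rest or went against their label. Total counts ran from 1336672 to 13942283 in super-shedders and from 966622 to 19346766 in non-shedders, and between 350 and 507 miRNAs had at least 1 count. miR-196b, encoded in a HOX cluster and a marker of the hind part of the body, stood at 804, 1.22, 0, 224 and 423 CPM (the count over the TMM-scaled library size) in super-shedders F to J, against 582, 540, 514, 357 and 367 CPM in non-shedders A to E. The 0 in H allows up to 1.71 CPM, 3 counts of that library, a limit that covers counting error only. miR-196a, its HOX relative, read 101, 0, 2.86, 7.63 and 170 CPM in super-shedders and 171, 250, 99.2, 253 and 128 CPM in non-shedders. The super-shedder libraries labelled G and H thus nearly lacked both HOX miRNAs, while the other 8 held miR-196b at 224 CPM or more. miR-196b is not particular to the descending colon, since in every animal another region held more of it, up to 625 to 1121 CPM. G and H were also each other's closest library (Spearman correlation across miRNAs 0.959). Library I had a median correlation of 0.832 with the other 9, where those had 0.911 to 0.948, and it received the lowest sample weight in limma-voom, 0.298 on a scale that reached 2.11 in E. The deepest libraries, J and A, 1 of each status, were each other's closest match (0.967). In the non-shedder D, miR-143 supplied 11.7% of counts, against 59.3% to 65.7% in the other 4 non-shedders and 33.2% to 69.2% in super-shedders. miR-122, the liver miRNA, was at 1.83 CPM or less throughout.

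**Figure D1:**
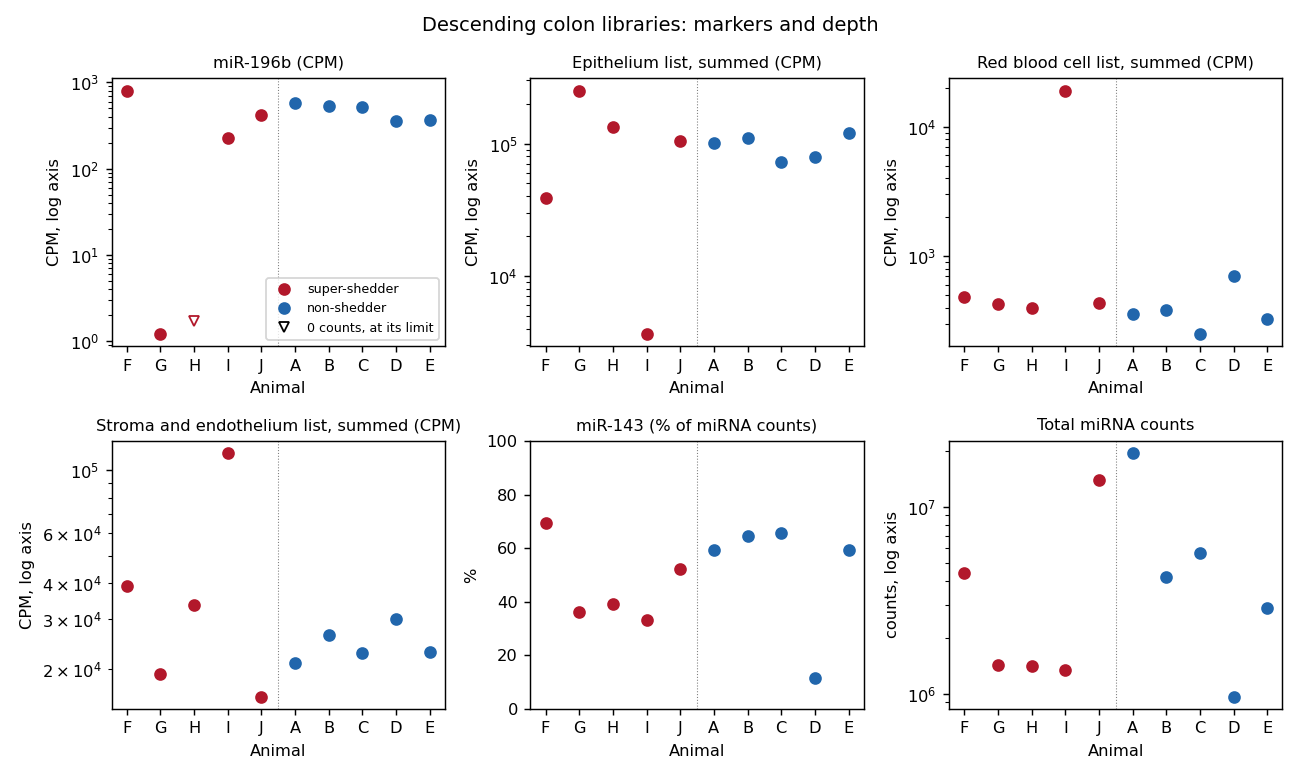
Each panel shows the 10 descending colon libraries by animal letter, super-shedders (red, F to J) left of non-shedders (blue, A to E), 1 point per library, with levels on log axes except the percentage of counts from miR-143. G and H lie at the floor of miR-196b, I stands at 19052 CPM for the red blood cell miRNAs and 3650 CPM for the epithelial ones, and D is low in miR-143.

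miR-378b had the smallest p. It belongs to the miR-378 family, whose main member is hosted, in human and mouse, by the PGC-1β gene of energy metabolism. Its level was 3.74, 2.44, 3.43, 7.63 and 1.45 CPM in super-shedders F to J, against 0.848, 59.5, 60.7, 39.3 and 4.65 CPM in non-shedders A to E. All 5 super-shedders were low, and so were the non-shedders A and E, so that only B, C and D stood above every super-shedder. This gave -3.27 ± 1.03 as log2 fold change with its SE (n = 5 a side, edgeR unadjusted p = 0.00832). Without A it was -3.61 ± 0.75, with an adjusted p of 0.171, the smallest when 1 library was left out. Across all such fits it ran from -3.67 (without I) to -2.88 (without C). Their edgeR unadjusted p reached 0.0210 and their adjusted p 0.989. The low value in A is particular to its descending colon library: the other 5 regions of animal A held 52.0 to 79.4 CPM, while animal E was low in each, at 3.50 to 4.59 CPM. In 1 fit of all 60 libraries, which takes its spread from the 12 groups and treats libraries of 1 animal as independent, 2 of 288 miRNAs passed for the descending colon (0.694%), miR-378b at -3.26 ± 0.83 (adjusted p = 0.0354) and miR-486 at 3.46 ± 0.70 (adjusted p = 0.00221).

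The relatives of miR-378b had much more even levels. miR-378 itself had 4113, 4272, 4365, 4844 and 3483 CPM in super-shedders and 3476, 4365, 4887, 3199 and 2867 CPM in non-shedders, a log2 fold change of 0.18 ± 0.26. miR-378c was at 0.34 ± 0.26 and miR-378d at 0.18 ± 0.57, and 0 of the 4 family members passed. The median over the family was 0.18, or -0.16 without G, H and I and -0.044 (without D) to 0.40 (without C) with 1 library left out, next to 0.05 over all miRNAs tested. These miRNAs are close in sequence, and how reads that match more than 1 of them were divided is not given in the sources used here.

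The largest fitted increases among the 269 were those of miR-486 and miR-451, which mark red blood cells. miR-486, which lies within an ankyrin gene in mammals and is abundant in erythroid cells and muscle, stood at 419, 301, 374, 17787 and 344 CPM in super-shedders F to J, against 252, 345, 235, 637 and 279 CPM in non-shedders A to E. miR-451, which drives red blood cell maturation, had 62.1, 116, 24.6, 1225 and 84.0 CPM in super-shedders and 99.6, 39.0, 14.5, 63.0 and 43.8 CPM in non-shedders. For both, the super-shedder library I lay far above the other 9, whose values were mixed between the groups. miR-144, made from the same primary transcript as miR-451, had 4.67, 7.33, 0.571, 40.1 and 3.92 CPM in super-shedders and 3.96, 2.19, 0.675, 1.51 and 5.59 CPM in non-shedders. With all 10 libraries the log2 fold changes were 3.50 ± 1.24 for miR-486 (unadjusted p = 0.0160), 2.62 ± 0.99 for miR-451 (0.0218) and 1.98 ± 0.90 for miR-144 (0.0494). Without library I they were 0.08, 0.53 and 0.59, and without I and A that of miR-486 was -0.041. Summed, the list came to 19052 CPM in I and to 399 to 486 CPM in the other super-shedders, against 250 to 701 CPM in non-shedders. All 3 members of the list were above 0, with a median of 2.62, or 0.53 without library I, and 0 passed.

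The miR-99 and miR-100 family with miR-125, abundant in mesenchymal and endothelial cells, gave the next group of small p-values. miR-99a-5p stood at 922, 321, 760, 7648 and 417 CPM in super-shedders F to J, against 582, 484, 581, 419 and 374 CPM in non-shedders A to E (log2 fold change 2.08 ± 0.82, unadjusted p = 0.0263). miR-99b had 6225, 1684, 5366, 29618 and 739 CPM in super-shedders and 1025, 3854, 3274, 1021 and 2671 CPM in non-shedders (1.89 ± 0.88, unadjusted p = 0.0547). Library I was again the highest of all 10 for both, and J the lowest for miR-99b. miR-100 had 6159, 861, 4348, 25649 and 892 CPM in super-shedders and 1104, 3914, 3596, 963 and 2744 CPM in non-shedders (1.63 ± 0.89), with I again the highest. miR-125b, the relative of the worm developmental regulator lin-4, had 4813, 1089, 4503, 11624 and 1616 CPM in super-shedders and 1744, 2941, 2299, 2499 and 2290 CPM in non-shedders (1.04 ± 0.56). F, H and I stood above every non-shedder for miR-125b, while G and J stood below them. Without I the log2 fold changes were 0.35 for miR-99a-5p, 0.58 for miR-99b, 0.33 for miR-100 and 0.39 for miR-125b. In its other 5 regions animal I held medians of 4466 CPM of miR-99a-5p, 16090 of miR-99b, 32651 of miR-100 and 12664 of miR-125b. The highest such medians in any other animal were 886, 7112, 7658 and 4196 CPM. The high levels of animal I were thus not confined to its descending colon library.

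Neighbours of these miRNAs in the genome had smaller fitted increases, or none. In the RefSeq gene table (assembly ARS-UCD2.0), miR-99a lies beside let-7c, miR-100 beside a let-7a gene, and miR-99b beside let-7e and miR-125a. let-7c was at 0.54 ± 0.41 and let-7a-5p at 0.40 ± 0.38, and beside miR-99b, at 1.89, let-7e was at -0.35 ± 0.40 and miR-125a at 0.91 ± 0.57. The other arm of the miR-99a hairpin, miR-99a-3p, was at -0.26 ± 0.43. The let-7 family, which promotes differentiation, gave 7 of 10 members above 0 with a median of 0.20 and 0 passing, and medians of 0.066 (without D) to 0.34 (without B) with 1 library left out. Of 17 stroma and endothelium miRNAs, 12 were above 0, with a median of 0.22 and 0 passing. Their sum reached 114489 CPM in I, against 16002 to 39037 CPM in the other super-shedders and 21008 to 29961 CPM in non-shedders. The list did not move as one in I. Of the arms of the endothelial miR-126, miR-126-5p was highest in I (16649 CPM) and miR-126-3p in the non-shedder D (3487 CPM in I, 4216 CPM in D). miR-29a and miR-222 were at their lowest in I, at 557 and 110 CPM. With 1 library left out the median of the list was 0.16 (without B) to 0.36 (without D).

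**Figure D2:**
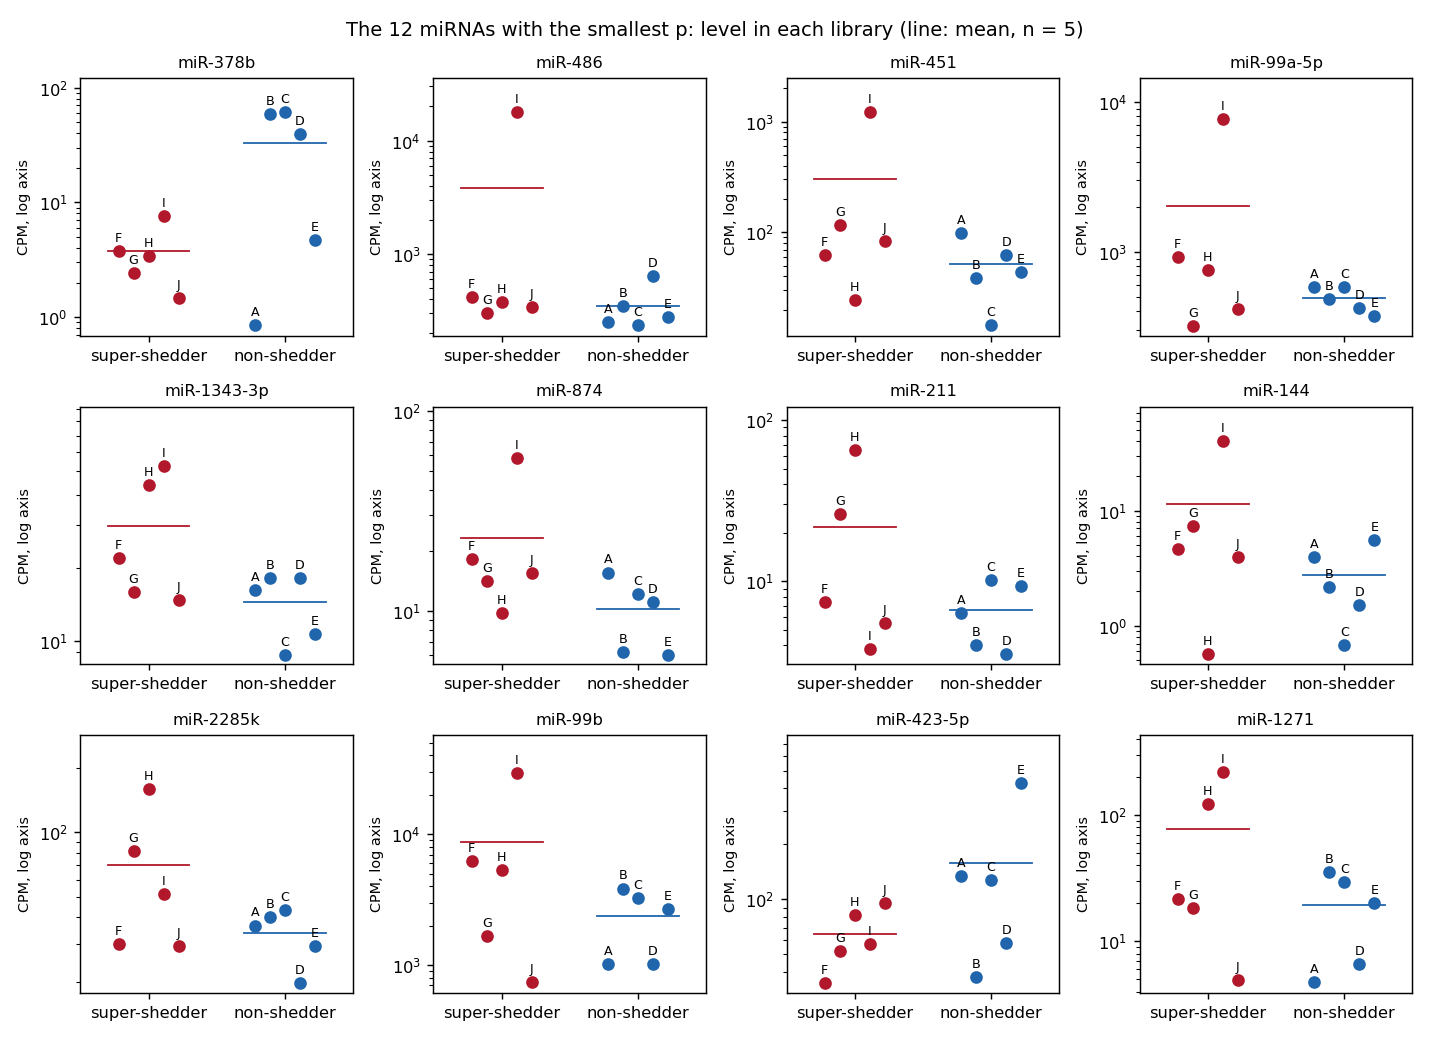
Levels in CPM (log axes) of the 12 miRNAs with the smallest p, 1 point per library with its animal letter, super-shedders (red) left of non-shedders (blue), and a line at each group's mean (n = 5). Library I is the highest point for 8 of the 12, miR-211 and miR-2285k are highest in H, and miR-378b is low in A and E as well as in every super-shedder.

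Several of the largest fitted changes shrank without library I, while those of miR-378b and miR-211 grew. The count at an unadjusted p under 0.05 in edgeR's test moved little, from 8 of 269 to 7 of 288 without I. Most of the miRNAs counted changed, however, and only miR-378b and miR-211 were in both sets. Without I, miR-486, miR-451, miR-99a-5p, miR-1343-3p, miR-874 and miR-144 had an edgeR unadjusted p of 0.0914 (miR-1343-3p) to 0.807 (miR-486). In their place came miR-142-3p, miR-142-5p, miR-146a, miR-27a-5p and miR-2285k, at 0.0176 (miR-142-3p) to 0.0483 (miR-2285k). With all 10 libraries 24 of 269 miRNAs had a log2 fold change of more than 1 in either direction, and 13 of the same 269 did without I, while 223 of the 269 kept their sign. The summed level of the epithelial miRNAs was lowest in that library. Summed over the 13 epithelial miRNAs, the level was 38757, 251297, 133341, 3650 and 104753 CPM in super-shedders F to J, against 100353, 110491, 72818, 79616 and 119713 CPM in non-shedders A to E. G and H lay above all non-shedders, F and I below all of them, and J among them. Of the sum in G, 183026 CPM was miR-192 and 45573 CPM miR-215, and miR-194 too was above every non-shedder there. By contrast, miR-200b (2427 CPM), miR-429 (407 CPM) and miR-183 (42.1 CPM) in G were below every non-shedder. The part of these sums in the shedding results was not tested.

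**Figure D3:**
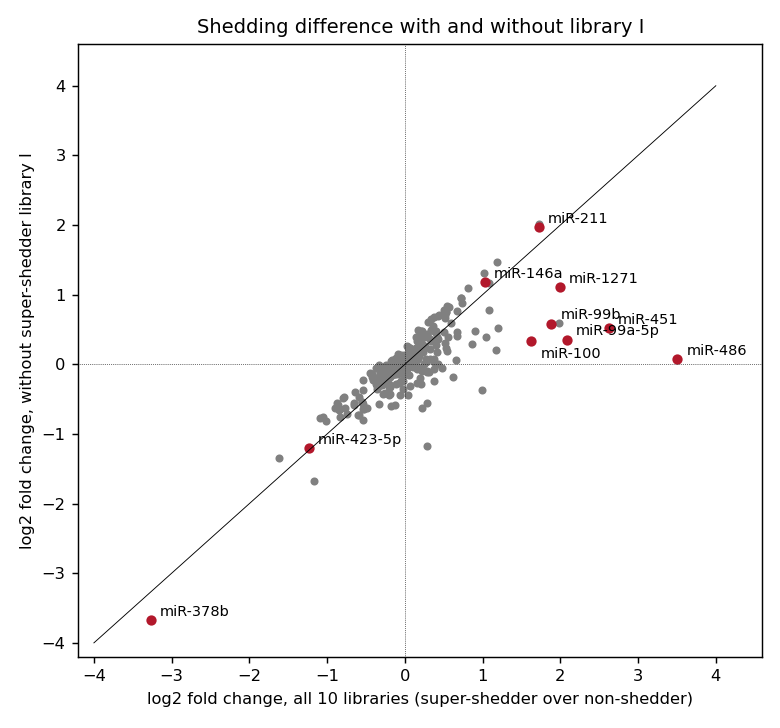
Each point is 1 of 269 miRNAs, with the log2 fold change (super-shedder over non-shedder) in all 10 libraries on the x axis and without library I on the y axis, and a line of equality. miR-486, miR-451, miR-99a-5p, miR-99b and miR-100 fall far below the line, at 0.08 to 0.58 without I, while miR-378b stays near it, at -3.67.

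Among the epithelial miRNAs, 4 were above 0 and 9 below, with a median of -0.54 and 0 passing. miR-192, the most abundant miRNA of enterocytes, had 30456, 183026, 96438, 3198 and 67822 CPM in super-shedders and 64113, 64887, 61409, 42422 and 81364 CPM in non-shedders, a log2 fold change of 0.29 ± 0.73. The super-shedders spread on both sides of the narrow range of the non-shedders. miR-215, of the same seed family, was at 0.33 ± 1.05, and miR-194, encoded beside miR-192 or miR-215, at 0.17 ± 0.86. The miR-200 family, which maintains the epithelial state, was at -1.09 ± 0.83 for miR-429, -0.78 ± 0.85 for miR-200a, -0.54 ± 0.79 for miR-200b, -0.45 ± 0.81 for miR-200c and -0.37 ± 0.81 for miR-141. miR-375, of enteroendocrine and goblet cells, was at -0.87 ± 0.85, with 51.5 CPM in I, 2775 to 8559 CPM in the other super-shedders and 2544 to 11522 CPM in non-shedders. The median of the list was -0.22 without I, with 4 of 13 above 0, and -0.46 without G, H and I, with 0 of 13 above 0. Leaving out 1 library at a time gave -0.85 (without J) to -0.22, with 1 of 13 above 0 without G. Without G and H the median was -1.03, with 0 of 13 above 0.

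The smooth muscle miRNAs varied widely within each status. miR-143 supplied 69.2%, 36.2%, 39.2%, 33.2% and 52.2% of all counts in super-shedders F to J, against 59.3%, 64.7%, 65.7%, 11.7% and 59.5% in non-shedders A to E. Its log2 fold change was -0.36 ± 0.76. miR-145, made from the same transcript, was at -1.01 ± 0.90, the muscle miRNAs miR-1 and miR-133a at -0.26 ± 0.77 and -0.24 ± 0.78. All 6 tested members were below 0, with a median of -0.33 and 0 passing. Without G, H and I, however, 5 of 6 were above 0 and the median was 0.31. With 1 library left out it was -0.999 (without F) to -0.17 (without H). Because of the TMM scaling, the CPM of a miRNA as dominant as miR-143 cannot be read as a share, so that its level is given as a percentage of counts.

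For leukocyte miRNAs, 11 of 12 were above 0, with a median of 0.40 and 0 passing. miR-142-3p, made by most blood cells, had 182, 1203, 905, 41.0 and 371 CPM in super-shedders and 379, 196, 331, 232 and 227 CPM in non-shedders (1.02 ± 0.67). miR-223, of neutrophils and other myeloid cells, had 23.8, 120, 197, 6.68 and 46.4 CPM in super-shedders and 34.3, 32.1, 68.8, 33.3 and 5.12 CPM in non-shedders (1.18 ± 0.82). G and H were the highest of all 10 libraries for both, and I was the lowest of all for miR-142-3p. miR-146a, a brake on NF-κB signalling, had 592, 2685, 1143, 590 and 418 CPM in super-shedders and 301, 449, 690, 823 and 404 CPM in non-shedders (1.03 ± 0.52, unadjusted p = 0.0728). It too was highest in G and H, the libraries that nearly lacked miR-196b, and without them its log2 fold change was -0.0058. Without G alone it was 0.40. The leukocyte median was -0.19 without G and H, with 4 of 12 above 0, and 0.02 without G, H and I, with 6 of 12. It was 0.17 (without H) to 0.52 (without D) with 1 library left out. Without I alone it was 0.45, with 12 of 12 above 0. miR-142-3p was then at 1.31 ± 0.47 (edgeR unadjusted p = 0.0176, adjusted p = 0.978).

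Of 8 miRNAs that inflammation is known to induce, 6 were above 0, with a median of 0.33, and 0 passed. The median was -0.53 without G and H, with 1 of 8 above 0. It was -0.20 without G, H and I and -0.0099 without H alone, but 0.47 without I alone, with 7 of 8 above 0. miR-147, induced by Toll-like receptor signals in macrophages, had 5.14, 5.50, 8.57, 0 and 52.9 CPM in super-shedders and 49.9, 11.3, 19.2, 35.3 and 47.9 CPM in non-shedders. The 0 in I allows up to 2.86 CPM. F, G, H and I were below every non-shedder, and J was above every one, with a log2 fold change of -1.05 ± 0.86. Without A and J it was -2.47 ± 0.75. miR-21-5p, abundant in most tissues, was at -0.16 ± 0.38, and miR-155, of activated lymphocytes and macrophages, at 0.20 ± 0.45.

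**Figure D4:**
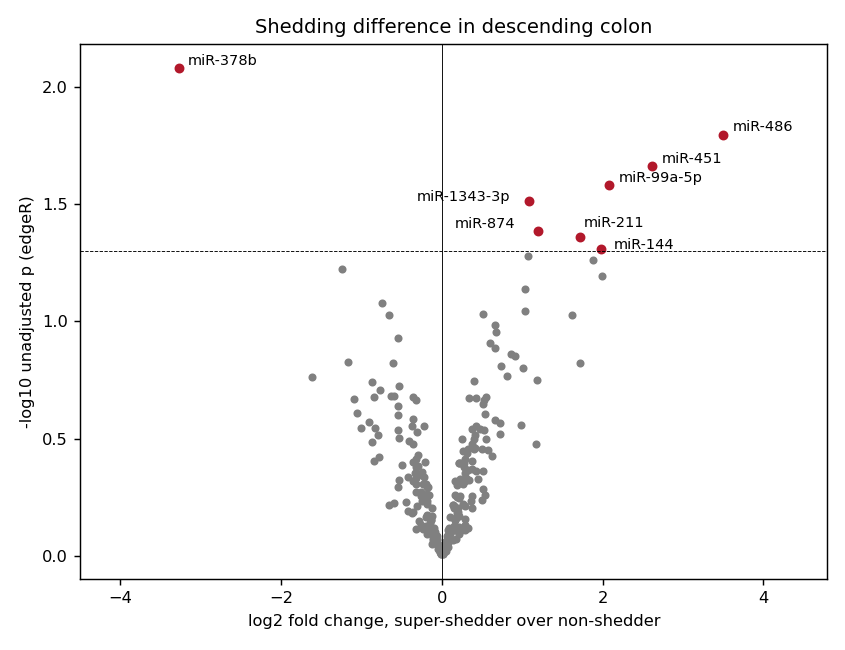
Each of 269 tested miRNAs is plotted by its log2 fold change (super-shedder over non-shedder, x axis) and by the -log10 of edgeR's unadjusted p (y axis). A dashed line marks the threshold of 0.05 before adjustment. The 8 miRNAs above the line are named in red, and 0 of them passed after edgeR's adjustment.

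Several other miRNAs among the 20 with the smallest p, namely miR-211, miR-874, miR-1343-3p and miR-1271, were at their highest in library H or I. miR-211, which in other mammals is best known from pigment cells, had 7.47, 26.3, 65.1, 3.82 and 5.52 CPM in super-shedders and 6.36, 4.01, 10.1, 3.53 and 9.31 CPM in non-shedders (1.72 ± 0.76, unadjusted p = 0.0438). Only G and H stood above the non-shedders, and the log2 fold change was 0.65 without H and -0.24 without both. miR-874 had 18.2, 14.0, 9.71, 58.2 and 15.4 CPM in super-shedders and 15.5, 6.20, 12.1, 11.1 and 6.05 CPM in non-shedders (1.19 ± 0.52), with I the highest, and without I the log2 fold change was 0.52. miR-1343-3p had 21.9, 15.9, 44.0, 52.5 and 14.7 CPM in super-shedders and 16.2, 18.2, 8.77, 18.2 and 10.7 CPM in non-shedders (1.08 ± 0.44). F, H and I lay above every non-shedder, and G and J among them. miR-1271 had 21.5, 18.3, 123, 220 and 4.94 CPM in super-shedders and 4.73, 35.4, 29.7, 6.56 and 20.01 CPM in non-shedders (1.99 ± 0.97). It was highest in H and I and lowest in A, with J next. Its log2 fold change was 1.11 without I and -0.64 without G, H and I.

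miR-423-5p was the miRNA with the second smallest p among those lower in super-shedders, with 35.02, 51.9, 82.3, 57.2 and 95.3 CPM in super-shedders and 134, 37.6, 127, 57.5 and 429 CPM in non-shedders (-1.24 ± 0.59, unadjusted p = 0.0596). A, C and E were above every super-shedder, B and D within their range. Without E the log2 fold change was -0.45. The other arm of its hairpin, miR-423-3p, was at -0.10 ± 0.43. Within the miR-320 and miR-423 list, 2 of 7 were above 0, with a median of -0.10 and 0 passing. Leaving out 1 library at a time gave medians of -0.24 (without H) to -0.038 (without I).

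The ruminant miR-2284 and miR-2285 family gave 7 of 9 tested members above 0, with a median of 0.22, or -0.11 over the 12 members tested without G, H and I, and 0 passed. miR-2285k had 29.9, 81.2, 159, 51.5 and 29.3 CPM in super-shedders and 36.6, 40.1, 43.2, 19.7 and 29.3 CPM in non-shedders (1.08 ± 0.50). G, H and I were above all non-shedders, F and J within their range, and the log2 fold change was 0.47 without H and -0.20 without these 3 libraries. miR-2285o was at 0.66 ± 0.38. The values of miR-2284x and miR-2284y were almost equal in each library, with log2 fold changes of 0.22 ± 0.25 for both, so that they do not count as separate measurements. miR-6524, outside this family, was at 0.68 ± 0.39, or 0.41 without G and 0.0013 without G, H and I. With 1 library left out the median of the family was 0.12 (without H) to 0.29 (without I).

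The miRNAs of the imprinted DLK1-DIO3 locus, where they are made together from the maternal chromosome, lay mostly below 0: 16 of 21 tested members, with a median of -0.33, or -0.10 over the 27 members tested without G, H and I, and 0 passing. miR-369-3p had 13.1, 8.55, 9.14, 13.4 and 26.9 CPM in super-shedders and 27.8, 21.2, 15.5, 39.8 and 20.5 CPM in non-shedders (-0.74 ± 0.39). F, G, H and I lay below every non-shedder, and J among them, and without J the log2 fold change was -1.19. miR-154c had 34.5, 15.3, 19.4, 18.1 and 43.2 CPM in super-shedders and 44.3, 36.8, 28.0, 49.4 and 55.9 CPM in non-shedders (-0.65 ± 0.36). For it G, H and I were below every non-shedder, and F and J among them, and without J it was at -0.99. The median of the locus was -0.64 without J. J and A, the deepest libraries, were the lowest of the 10 for miR-409a, at 0.0726 CPM in J, with 5.50 to 87.8 CPM in the other super-shedders, and at 0.848 CPM in A, with 11.1 to 23.3 CPM in the other non-shedders. The other 5 regions of animal J held 37.3 to 110 CPM of miR-409a, and those of animal A 17.0 to 45.9 CPM. For miR-1271, too, the descending colon library lay below the other 5 regions of its animal, with 4.94 against 77.2 to 279 CPM in J and 4.73 against 25.7 to 53.2 CPM in A.

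The 10 most abundant miRNAs and the remaining lists gave no called member either. After miR-143, miR-10b and miR-192 came miR-10a, miR-26a, miR-27b, miR-26c, miR-148a, miR-22-3p and miR-215. miR-27b, widely made in mesenchymal and endothelial cells, supplied 2.96% ± 0.47 of counts in super-shedders and 2.91% ± 0.74 in non-shedders (SD, n = 5 each), with a log2 fold change of 0.017 ± 0.38. miR-26a supplied 3.30% ± 1.56 of counts in super-shedders and 3.07% ± 2.08 in non-shedders, with nearly the same values for miR-26c. miR-22-3p supplied 1.24% ± 0.46 in super-shedders and 1.82% ± 1.79 in non-shedders (-0.25 ± 0.31). The HOX cluster miRNAs gave 1 of 4 above 0, with a median of -0.42, or 0.16 without G, H and I and -1.10 (without F) to -0.17 (without G) with 1 library left out. miR-10b, the second most abundant miRNA on average, supplied 6.81%, 1.36%, 3.20%, 22.5% and 5.15% of counts in super-shedders and 6.09%, 4.33%, 9.98%, 9.55% and 4.38% in non-shedders (0.22 ± 0.80). The miR-17-92 cluster and its paralogs, which promote proliferation, gave 10 of 13 above 0, with a median of 0.15, or -0.36 without G, H and I, -0.15 without G alone and -0.070 without H alone. Their sum reached 22209 CPM in H, against 6816 to 10649 CPM in the other super-shedders and 7962 to 11060 CPM in non-shedders. Of the sum in H, 17920 CPM was miR-92a. miR-92b, miR-25 and miR-363 were also highest in H, whereas miR-17-5p and miR-20a were highest in G. These last 2 stood at 209 and 223 CPM in G, and at 109 and 138 CPM in H. The neural miRNAs gave 2 of 7 above 0, with a median of -0.13, or 0.058 over the 9 tested without I and 0.036 without B, and of the liver and pancreas list only miR-148a was tested, at -0.13 ± 0.30. miR-199a-5p, of mesenchymal cells, was at 0.51 ± 0.28, or 0.31 without I, and its other arm miR-199a-3p at -0.54 ± 0.49. In J miR-199a-3p stood at 282 CPM, with 1866 to 2659 CPM in the other super-shedders. miR-199c, whose values nearly equalled those of miR-199a-3p in every other library, had 2880 CPM in J and was at -0.19 ± 0.27.

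A second test set the shedding difference in the descending colon against the mean shedding difference of the other 5 regions, in 1 model of all 60 libraries. miR-486 alone passed, 1 of 288 miRNAs (0.347%), with a difference between log2 fold changes of 3.41 ± 0.74 (adjusted p = 0.00712). Its shedding log2 fold change was 3.46 ± 0.70 in the descending colon, -0.15 ± 0.63 in the spiral colon, -0.50 ± 0.63 in the cecum, -0.31 ± 0.63 in the distal jejunum, 0.68 ± 0.64 in the proximal jejunum and 0.52 ± 0.63 in the duodenum. miR-451 at 2.87 ± 0.80 (adjusted p = 0.103) and miR-144 at 2.21 ± 0.83 (adjusted p = 0.952) came next and did not pass. This call rests on library I, which held 17787 CPM of miR-486 where the other 5 regions of animal I held 427 to 1161 CPM. Without animal I the difference for miR-486 was 0.19 ± 0.43 (adjusted p = 0.982). With the animal as a replicate block, which pairs the regions of each animal, it was 1.92 ± 0.67 (adjusted p = 0.877) and 0 miRNAs passed. It also missed the threshold without A (3.16, adjusted p = 0.0856), without B (3.40, adjusted p = 0.0624), without E (3.49, adjusted p = 0.0505) and with total-count scaling (2.91, adjusted p = 0.296).

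For miR-378b the test against the other regions found no difference that passed: 0.80 ± 0.88 between log2 fold changes. Its shedding log2 fold change was -3.26 ± 0.83 in the descending colon and between -4.39 and -3.82 in the other 5 regions, which come from the same animals. miR-2285k was at 1.05 ± 0.47 in the descending colon and between 0.66 and 1.14 elsewhere, and miR-423-5p at -1.28 ± 0.44 and between -1.21 and -0.25. For these 3 miRNAs the sign was the same in all 6 regions. miR-99a-5p was likewise above 0 in each, at 2.04 ± 0.90 in the descending colon and at its highest, 3.57 ± 0.96, in the proximal jejunum. Animal I held 614 to 16969 CPM of miR-99a-5p in its other 5 regions, with a median of 4466 CPM. The same medians were 219 to 886 CPM in the other super-shedders and 168 to 694 CPM in non-shedders. How far the differences in these regions rest on animal I was not tested.

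**Figure D5:**
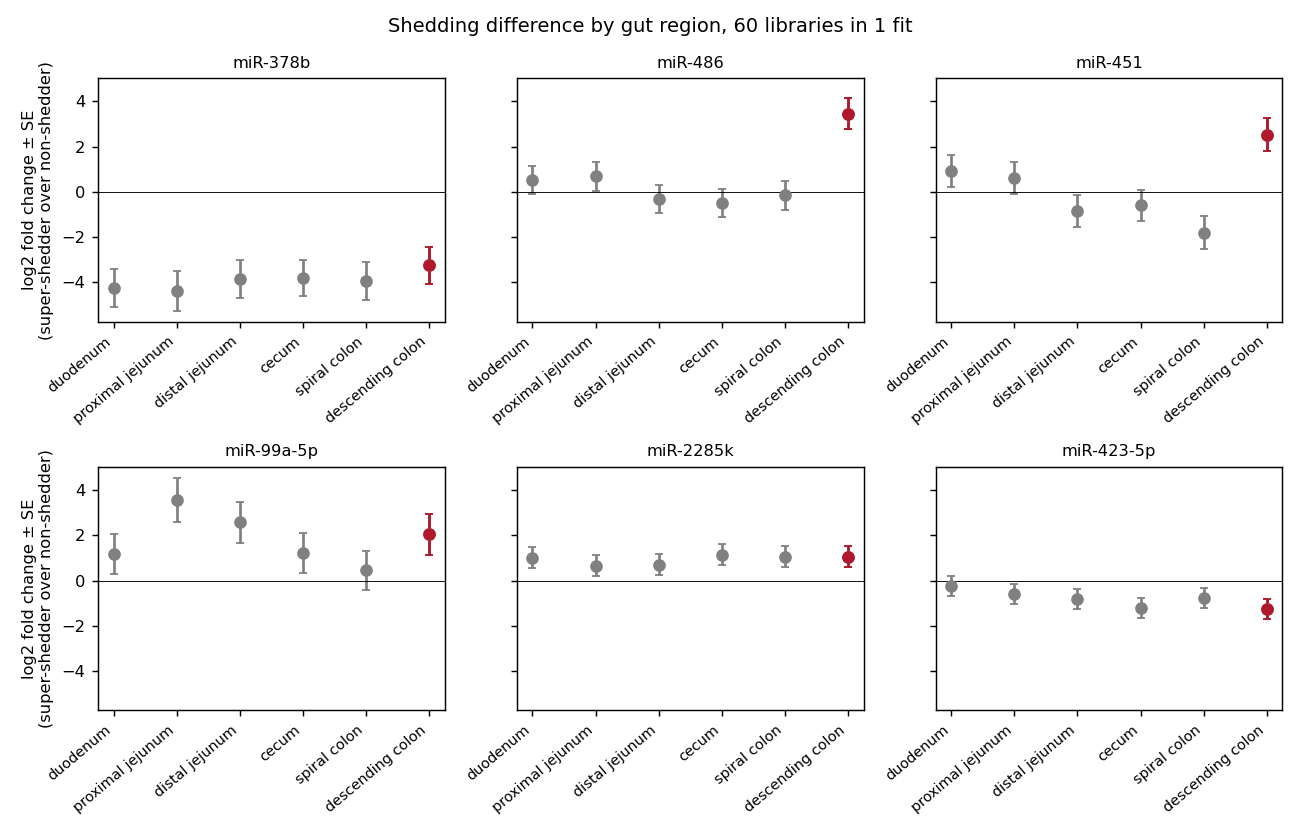
Log2 fold change of super-shedder over non-shedder with its SE for 6 miRNAs in each of 6 gut regions, from 1 fit of all 60 libraries, with the descending colon in red. For miR-486 and miR-451 the descending colon stands above the other regions, at 3.46 and 2.53, with all libraries included; for miR-378b all 6 regions lie between -4.39 and -3.26.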

How the data were processed

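Small RNA was extracted with the mirVana kit and made into libraries with the TruSeq small RNA kit, per the labels' protocols. The table deposited by the authors holds raw read counts per mature miRNA, 608 in all, of which 5 were at 0 in all 60 libraries and 600 matched RefSeq names. Bowtie and edgeR are named in the submitters' processing notes. No source used here gives the versions, the genome build, the miRNA annotation or how multiply matching reads were handled.

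Counts of the 10 descending colon libraries were filtered with filterByExpr (minimum count 10), scaled by TMM and tested with the two-sided quasi-likelihood F test of edgeR 4.0.16 in R 4.3.3, with Benjamini-Hochberg adjustment and a threshold of 0.05. The contrast with the other regions came from a model of 12 group means in 60 libraries. SE is the log2 fold change over the square root of F. Levels are CPM with TMM factors over 60 libraries. Alternatives were RLE and total-count scaling, other filters, a robust fit, DESeq2 1.42.0, the exact test, limma-voom (limma 3.58.1), a 60-library fit, a block on animal, and libraries left out. Named miRNAs are those past the threshold, otherwise the 20 with the smallest p, the 10 most abundant, list members and region markers. The members and the 15 lists were chosen with earlier results of these data known.

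Replicate libraries differed by more than counting error (chi-square per degree of freedom 295.5 to 5440 over 20 pairs). Where a letter is not a separate animal, p-values measure only the spread between these samples. After removal of group means, descending colon libraries correlated with the other regions of their own letter at a mean of 0.143 and with those of other letters at -0.0106; A was at -0.154, F at -0.0113, J at 0.00608 and the other 7 at 0.0998 to 0.446.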

Additional observations from a re-analysis of the deposited data

Results flagged for a closer look

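In groups of 5 libraries, a value far from the other 4 (Dixon's criterion) was found in 16 of 72 groups checked, 9 of them in the super-shedder library I. Chance flags about 1 in 20 independent groups, which is no measure for these, since many are the miRNAs with the smallest p and the sums hold the same miRNAs.

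Library I stood above the other 4 super-shedders for miR-486 (17787 CPM, others 301 to 419), miR-451 (1225 CPM, others 24.6 to 116), miR-144 (40.1 CPM, others 0.571 to 7.33), miR-874 (58.2 CPM, others 9.71 to 18.2), miR-99a-5p (7648 CPM, others 321 to 922), miR-99b (29618 CPM, others 739 to 6225) and miR-100 (25649 CPM, others 861 to 6159). The same library was highest in the summed red blood cell miRNAs (19052 CPM, others 399 to 486) and in the summed stroma and endothelium miRNAs (114489 CPM, others 16002 to 39037). The epithelial sum was lowest there, and within the stroma and endothelium list miR-29a (557 CPM) and miR-222 (110 CPM) were also at their lowest of the 10 libraries; no cause was tested.

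Among the other super-shedders, H stood apart for the summed miR-17-92 cluster and paralogs (22209 CPM, others 6816 to 10649), 17920 CPM of it miR-92a. J stood apart for miR-369-3p (26.9 CPM, others 8.55 to 13.4) and total counts (13942283, others 1336672 to 4422528). Among non-shedders, D stood apart for miR-486 (637 CPM, others 235 to 345) and for the smooth muscle share of counts (11.7%, others 59.8% to 65.9%), E for miR-423-5p (429 CPM, others 37.6 to 134) and A for total counts (19346766, others 966622 to 5669901).

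The shedding difference of miR-486 differed between the descending colon and the mean of the other 5 regions by 3.41 on the log2 scale in a test of that difference, and by 0.19 without animal I.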

How the results depend on the processing

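The count of 0 called miRNAs in the descending colon held under all alternatives run, leave-one-out included, except the fit of all 60 libraries, with 2. At an unadjusted p under 0.05 there were 0 (limma-voom with sample weights) to 23 (without J) miRNAs. No paired analysis was possible within the descending colon because each letter has 1 status. Against the other 5 regions, 1 miRNA passed, and the count was 2 with RLE scaling, 0 with total-count scaling, 0 with the animal as a replicate block, 0 without the descending colon libraries G, H and I, and 2 without those of A and J. Leaving out 1 animal at a time gave 0 to 2, with 0 without A, B, E or I and 2 without F, G or H; the cause was not tested. For miR-486 in that contrast the adjusted p was 0.0856 without A, 0.0624 without B and 0.0505 without E. Signs reversed for miR-486 without I and A (-0.041), for miR-211 (-0.058), miR-2285k (-0.20), miR-1271 (-0.64) and miR-146a (-0.073) without G, H and I, and for miR-211 (-0.24) and miR-146a (-0.0058) without G and H. The fits without A and J, and without G and H, were chosen after seeing the data. Total-count scaling put 127 of 269 miRNAs above 0, where TMM put 150. List medians also moved with the method. In limma-voom the epithelial median was -1.28, with 0 of 13 above 0, the HOX median -1.85 and the red blood cell median 1.20. The leukocyte median was 0.28 there, with 11 of 12 above 0. With 5 libraries a side and the shallowest library at 966622 counts, low miRNAs are imprecise, and a p that misses the threshold does not show that groups are alike.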
